A study of Mus musculus with 6 samples.

Results

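Genes of platelet-derived growth factor (PDGF) signalling and mural cells were examined by bulk RNA-Seq of the ductus arteriosus (DA), the fetal artery that joins the pulmonary artery to the aorta. They were taken by symbol, as 2 receptors and a receptor-like gene, 4 ligands, and 3 mural cell surface proteins. All 10 were found among the 23997 genes of the deposited table. The libraries came from mouse embryos of the C57BL/6 strain at E17.5, with 3 labelled WT (wild type) and 3 labelled KO (Prdm6f/f; SM22-Cre). The KO genotype carries floxed *Prdm6* together with a Cre transgene under the promoter of *SM22* that expresses Cre recombinase in smooth muscle cells (SMCs). No treatment was given to either group. The WT embryos are described as littermates, and whether they carried Cre or a floxed allele is not given in the sources used here. The number of embryos behind each library is likewise not stated, so p-values measure only the spread between these libraries. The authors' figure legend that covers these data gives 4 per group, against the 3 libraries per group in this series.

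PDGF ligands are dimers that bind 2 receptor tyrosine kinases, PDGFRα and PDGFRβ. In a developing artery, the endothelium is a known source of PDGF-B, which acts on PDGFRβ of pericytes and SMCs (the mural cells) and supports their recruitment, whereas PDGFRα marks fibroblasts and other mesenchymal cells. PDGF-A signals mainly through PDGFRα. PDGF-C and PDGF-D carry a CUB domain that must be cleaved before they can bind a receptor.

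RefSeq promoters of GRCm38.p6 were available for 7 of the 10 genes (*Pdgfra*, *Pdgfa*, *Pdgfc*, *Pdgfd*, *Cspg4*, *Mcam*, and *Anpep*) in 8 windows. The 250 bases before the start site are given for the 4 genes whose window holds no annotated exon, because they show how different the promoters of a receptor, 2 ligands, and a mural cell surface protein are. Capitals mark the motifs searched on both strands, which were the GC box (GGGCGG), the CCAAT box (CCAAT), the TATA box (TATAAA), and the CArG box of serum response factor. The windows are, for *Pdgfra*, chr5:75152001-75152250 (plus strand), for *Pdgfc*, chr3:81036166-81036415 (plus strand), for *Pdgfd*, chr9:6168236-6168485 (plus strand), and for *Anpep*, chr7:79848211-79848460 (minus strand). The last of these lies inside the annotated *Anpep* gene, before the start site that RefSeq uses.
Pdgfra: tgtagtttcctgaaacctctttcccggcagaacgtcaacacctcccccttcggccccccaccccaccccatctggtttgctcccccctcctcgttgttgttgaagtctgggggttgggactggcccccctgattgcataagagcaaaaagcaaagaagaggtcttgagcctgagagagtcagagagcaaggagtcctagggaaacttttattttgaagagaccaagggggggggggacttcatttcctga
Pdgfc: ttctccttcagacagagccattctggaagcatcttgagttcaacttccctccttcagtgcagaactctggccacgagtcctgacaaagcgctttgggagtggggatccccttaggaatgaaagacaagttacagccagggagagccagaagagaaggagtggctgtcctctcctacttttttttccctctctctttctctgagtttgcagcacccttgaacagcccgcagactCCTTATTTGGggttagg
Pdgfd: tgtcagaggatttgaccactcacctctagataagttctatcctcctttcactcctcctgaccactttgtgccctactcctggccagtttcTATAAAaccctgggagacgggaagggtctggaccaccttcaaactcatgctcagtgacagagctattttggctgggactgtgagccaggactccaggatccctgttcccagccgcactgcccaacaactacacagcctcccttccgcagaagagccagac
Anpep: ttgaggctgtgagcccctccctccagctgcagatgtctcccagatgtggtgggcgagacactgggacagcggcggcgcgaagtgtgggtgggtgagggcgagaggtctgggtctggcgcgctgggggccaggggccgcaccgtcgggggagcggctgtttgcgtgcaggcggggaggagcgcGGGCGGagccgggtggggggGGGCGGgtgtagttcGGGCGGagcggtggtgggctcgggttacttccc

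The window of *Pdgfc* held 1 CArG box, that of *Pdgfd* 1 TATA box, that of *Anpep* 3 GC boxes, and that of *Pdgfra* none of the 4 motifs. No printed match overlaps another. The GC content was 54.4% for *Pdgfra*, 50.8% for *Pdgfc*, 53.6% for *Pdgfd*, and 72.8% for *Anpep*, against a median of 52.4% over all 32851 promoter windows of this length. Of the 8 windows, 5 held a GC box, 1 a TATA box, 1 a CArG box, and 0 a CCAAT box. These motifs occurred in 32.7%, 12.4%, 1.47%, and 33.8% of all windows, respectively. *Mcam* had 5 GC boxes in a window with a GC content of 73.6%, and all 250 bases of that window were annotated as exon. The windows of *Pdgfa* (86 and 232 bases) and *Cspg4* (71 bases), each with a GC box, also held annotated exon. These matches describe letters only and are not evidence of binding.

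Levels are given as FPKM, which adjusts fragments for transcript length and library size. *Prdm6*, the targeted gene (chromosome 18 of GRCm38, bases 53463583 to 53575907), was measured at 41.7, 48.4, and 19.8 FPKM in WT-labelled libraries 0, 1, and 2 and at 48.6, 27.1, and 15.4 in KO-labelled libraries 0, 1, and 2. Libraries are listed in this order throughout. The gene did not separate the groups in these FPKM values, so every direction below rests on the labels. By quantitative PCR, the authors report lower *Prdm6* in the DA and aorta of mice of the KO genotype. The KO-labelled library 0 held both *Xist* (81.0 FPKM) and the Y chromosome gene *Ddx3y* (26.4 FPKM), whereas each other library held only 1 of the 2 above 1 FPKM. The heart muscle markers summed to 1778 FPKM in WT-labelled library 1 and 2065 in KO-labelled library 2, against 64.1 to 647 in the other 4. Steps between low values put the relative depth between 0.93 and 1.19 times that of WT-labelled library 1. The absolute depth is unknown. All 8 SMC markers were above 0 in every library, with *Acta2*, smooth muscle actin, at 396 FPKM or more. All 8 were lower on average in the KO-labelled libraries, with summed FPKM of 2486 to 5689 (WT) and 869 to 2384 (KO). Schwann cell markers were higher for 8 of 9 genes, with sums of 16.9 to 40.3 (WT) and 47.4 to 145 (KO). *Gfra3* was listed at 0 in WT-labelled libraries 1 and 2, and *S100b*, *Foxd3*, and *Fabp7* in 1 library each. Erythroid markers were higher for 7 of 7 tested genes, with overlapping sums of 3873 to 7582 (WT) and 4301 to 24385 (KO). The highest erythroid sums were in KO-labelled libraries 0 (12666) and 1 (24385). In bulk tissue, fewer cells of a type and less RNA per cell cannot be told apart.

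limma was run on log2(FPKM + 0.1) over 12955 genes whose FPKM averaged 1 or more, and all 10 genes passed this filter, also in each group on its own. Log2 fold changes are KO against WT on that scale, where the pseudocount shrinks those of low genes, but a library listed at 0 can enlarge them. None of the 10 genes had an adjusted p under 0.05 (Benjamini-Hochberg over all tested genes), where 0.00772% of all tested genes did, and 1 of the 10, *Pdgfrl*, had an unadjusted p under 0.05. Of all tested genes, 8.28% did, 4.97% with lower and 3.31% with higher values in the KO-labelled libraries. KO-labelled and WT-labelled values were fully separated for *Pdgfrl*, which was lower in every KO-labelled library, and for *Pdgfb*, which was higher in every KO-labelled library. That is 2 of 10 genes, beside 16.1% of all tested genes. Of the 10, 7 had a negative and 3 a positive log2 fold change, with a median of -0.18 beside 0.072 for all tested genes. The median was 0.0089 without WT-labelled library 0, 0.079 without KO-labelled library 2, and 0.0043 when WT-labelled library 1 and KO-labelled library 2, the pair rich in heart muscle transcripts, were both omitted. With 3 libraries against 3, the smallest p of a two-sided exact permutation test is 0.1.

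**Figure D1:**
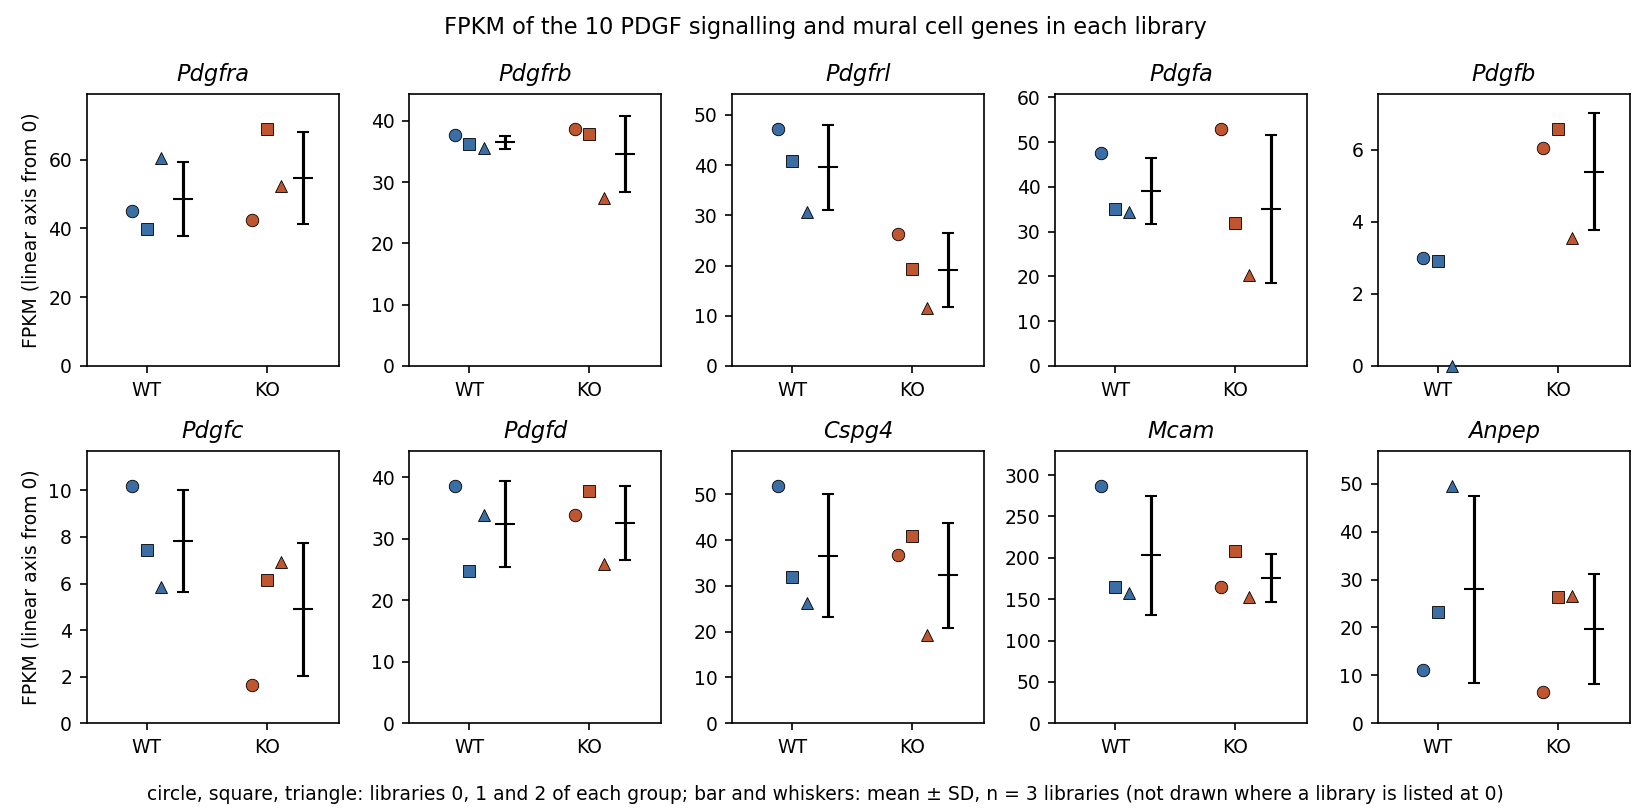
FPKM (vertical axes, linear from 0) of each gene in the 3 WT-labelled and 3 KO-labelled libraries, with circle, square, and triangle for libraries 0, 1, and 2 and bars for mean ± SD, left out where a library is listed at 0. For *Pdgfrl* the KO-labelled libraries (11.5 to 26.2) lie below the WT-labelled ones (30.6 to 47.2), for *Pdgfb* they lie above, and for the other 8 genes the groups overlap.

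The signalling receptors were abundant and overlapped between the groups. *Pdgfra* (chromosome 5 of GRCm38, bases 75152292 to 75198215) encodes PDGFRα. It was measured at 44.98, 39.9, and 60.5 FPKM in the WT-labelled libraries (mean 48.5 ± 10.8, SD, n = 3) and 42.4, 68.9, and 52.4 in the KO-labelled ones (mean 54.5 ± 13.4, SD, n = 3). The highest value belonged to KO-labelled library 1, and KO-labelled library 0 lay within the WT range. The log2 fold change was 0.16 (standard error 0.24, 95% interval -0.40 to 0.73, limma adjusted p = 0.834), and without KO-labelled library 1 it was -0.019. Exons of *Pdgfra* share 456 bases with the antisense gene *Gm42802* and 166 with *Gm42803*, and whether the libraries keep strand is not given in the sources used here.

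*Pdgfrb* (chromosome 18, bases 61045150 to 61085061) encodes PDGFRβ, the receptor through which mural cells are recruited. WT-labelled libraries held 37.6, 36.2, and 35.6 FPKM (mean 36.5 ± 1.04, SD, n = 3) and KO-labelled ones 38.7, 37.8, and 27.5 (mean 34.6 ± 6.23, SD, n = 3). The WT-labelled values were the closest together of any of the 10 genes, and KO-labelled library 2 alone lay below them. The log2 fold change was -0.091 (standard error 0.19, 95% interval -0.54 to 0.36, limma adjusted p = 0.887). Without KO-labelled library 2 it was 0.068, and both remaining KO-labelled values then lay above all WT-labelled ones. The interval is the narrowest of the 10 and spans both directions.

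*Pdgfra* was above *Pdgfrb* in 6 of 6 libraries, a comparison that FPKM allows because it is per length. The ratio was 1.20, 1.10, and 1.70 in the WT-labelled libraries and 1.10, 1.82, and 1.91 in the KO-labelled ones. Its log2 value differed by 0.26 between the groups (p = 0.5, two-sided exact permutation), which is within the spread, since WT-labelled library 2 exceeds KO-labelled library 0. With the heart muscle-rich pair omitted the difference was -0.013.

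*Pdgfrl* encodes a receptor-like protein that resembles the extracellular part of the PDGF receptors and has no kinase domain. The gene (chromosome 8, bases 40926212 to 40990785) was read at 47.2, 40.8, and 30.6 FPKM in the WT-labelled libraries (mean 39.5 ± 8.39, SD, n = 3) and 26.2, 19.3, and 11.5 in the KO-labelled ones (mean 19.0 ± 7.37, SD, n = 3). Every KO-labelled value was below the lowest WT-labelled value, and the ratio of the means was 0.481. limma gave a log2 fold change of -1.11 with a 95% interval of -1.87 to -0.34 (standard error 0.33, adjusted p = 0.535, unadjusted p = 0.0105), and the exact permutation test gave its smallest possible p of 0.1. Among all tested genes, 4.79% had a lower log2 fold change, and 7.84% had all KO-labelled libraries below all WT-labelled ones.

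The lower level of *Pdgfrl* kept its sign in all 17 alternatives, most of which could not have turned it. The log2 fold change was between -1.38 and -0.79 when any single library was left out. With the heart muscle-rich pair omitted it was -0.75. Because the groups were separated, no omission or pseudocount could turn the sign. The filters, variance models, and replicate block leave the value unchanged. Only the 2 scalings could have turned it, and they gave -1.07 (quantile normalization) and -1.11. The adjusted p from limma lay between 0.323 and 0.881 over these alternatives. The summed SMC markers given above were also lower in every KO-labelled library. Taken singly, 6 of the 8 lay below without overlap, beside 7.84% of all tested genes, and *Acta2* and *Smtn* overlapped between the groups. Of 12 fibroblast and adventitia markers, 9 were lower, with sums of 3754 to 6746 FPKM (WT) and 3026 to 5497 (KO), and *Ly6a* was listed at 0 in KO-labelled library 0. *Lum* (log2 fold change 1.16), *Cd34* (0.95), and *Dcn* (0.35) were the 3 that were higher. Without overlap, 3 of the 12 lay below and 1, *Lum*, above, beside 7.84% and 8.21% of all tested genes. The part of either cell type in the result for *Pdgfrl* was not tested.

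**Figure D2:**
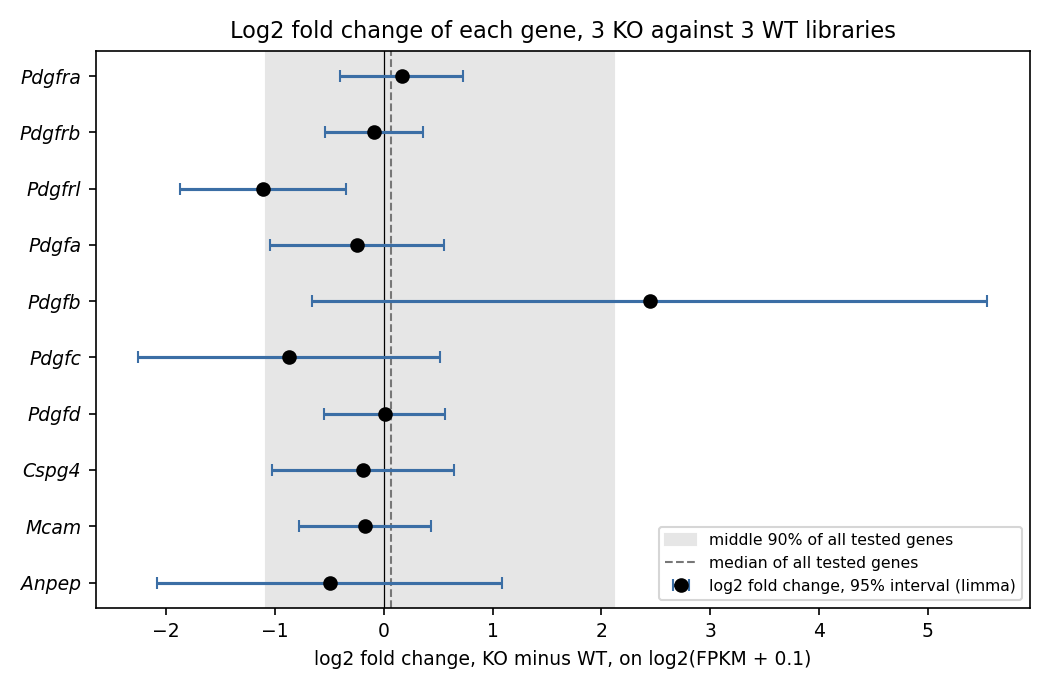
Log2 fold change (horizontal axis, KO minus WT on log2(FPKM + 0.1)) of the 10 genes with 95% intervals from limma, beside the range of the middle 90% of tested genes (grey) and their median of 0.072 (dashed). Only the interval of *Pdgfrl*, from -1.87 to -0.34, leaves out 0, and that of *Pdgfb* is the widest.

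Among the ligands, *Pdgfa* and *Pdgfd* had the 2 highest values in 6 of 6 libraries. *Pdgfa* (chromosome 5, bases 138976014 to 138997370) stood at 47.5, 35.2, and 34.4 FPKM in the WT-labelled libraries and 52.9, 31.9, and 20.4 in the KO-labelled ones. The KO-labelled libraries held both the highest and the lowest value of the 6. Its log2 fold change came to -0.25 (standard error 0.34, 95% interval -1.04 to 0.55, limma adjusted p = 0.825), and it was 0.091 without KO-labelled library 2. Its exons share 813 bases with the antisense gene *6330403L08Rik*.

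*Pdgfd* (chromosome 9, bases 6168584 to 6378850), a ligand of PDGFRβ, was read at 38.5, 24.8, and 33.9 FPKM in the WT-labelled libraries (mean 32.4 ± 6.96, SD, n = 3) and 33.9, 37.7, and 26.0 in the KO-labelled ones (mean 32.5 ± 6.00, SD, n = 3). The group means were nearly equal, and the log2 fold change was 0.011 (standard error 0.24, 95% interval -0.54 to 0.57, limma adjusted p = 0.989). With libraries left out singly, it ranged from -0.17 to 0.16. Its promoter window, printed above, was the one of the 8 with a TATA box.

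*Pdgfc* (chromosome 3, bases 81036416 to 81214040), whose window held the CArG box, was expressed at a lower level, with 10.2, 7.45, and 5.85 FPKM in the WT-labelled libraries and 1.64, 6.14, and 6.91 in the KO-labelled ones. KO-labelled library 0 stood far below the other 5, and the groups overlapped. limma put its log2 fold change at -0.87 (standard error 0.60, 95% interval -2.25 to 0.52, adjusted p = 0.695). Without KO-labelled library 0, the library with both *Xist* and *Ddx3y*, it was -0.22, so its size rests on that library. Without any other single library it lay between -1.23 and -0.66. Its exons share 147 bases with the antisense gene *Gm16000*.

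*Pdgfb* (chromosome 15, bases 79995874 to 80014977) was the least abundant of the 10 genes in 4 of 6 libraries. It was listed at 2.99, 2.91, and 0 FPKM in the WT-labelled libraries and at 6.05, 6.57, and 3.54 in the KO-labelled ones. Every KO-labelled value was above every WT-labelled value, although KO-labelled library 2 exceeded WT-labelled library 0 by little. Listed zeros also occurred among abundant genes, with 34 to 61 of the 3506 genes that average 20 FPKM or more at 0 per library, the most in WT-labelled library 2. A log2 fold change of 2.44 was fitted (standard error 1.33, 95% interval -0.66 to 5.55, limma adjusted p = 0.649). It was 0.80 without WT-labelled library 2, 1.32 with a pseudocount of 1, 3.55 with a pseudocount of 0.01, and 1.45 with quantile normalization, where the groups overlapped. In 8.21% of all tested genes, all KO-labelled libraries lay above all WT-labelled ones.

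Endothelial markers, from the cell type known for PDGF-B, were higher for 8 of 10 genes, with sums of 390 to 567 FPKM (WT) and 473 to 760 (KO), and none was listed at 0. *Cldn5*, a tight junction gene, was at 9.91, 11.6, and 14.6 against 27.9, 48.2, and 39.0 FPKM (log2 fold change 1.64, limma adjusted p = 0.298). The endothelial sum overlapped between the groups. KO-labelled library 1 had both the highest sum (760 FPKM) and the highest *Pdgfb* (6.57 FPKM). KO-labelled library 0, with *Pdgfb* at 6.05 FPKM, had a sum of 473, within the WT range. KO-labelled library 2 had a sum of 685 with *Pdgfb* at 3.54 FPKM. WT-labelled library 2 had the highest WT sum (567 FPKM) with *Pdgfb* listed at 0. *Cldn5* and *Tek* were the 2 of 10 markers that lay above without overlap, beside 8.21% of all tested genes. *Emcn* (log2 fold change -0.27) and *Esam* (-0.12) were lower, with overlapping groups. The part of the endothelium in the values of *Pdgfb* was not tested.

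As a share of the 4 ligands' summed FPKM, *Pdgfb* made up 3.01%, 4.13%, and 0% in the WT-labelled libraries and 6.40%, 7.98%, and 6.24% in the KO-labelled ones. This share does not depend on the scaling of the libraries, and its groups were separated (p = 0.1, exact permutation, two-sided). The difference was 4.49 percentage points, and 3.30 without WT-labelled library 2. The shares of *Pdgfa* (35.9% to 56.0% over all libraries), *Pdgfd* (35.3% to 45.8%), and *Pdgfc* (1.73% to 12.2%) overlapped between the groups, with exact permutation p of 0.5, 0.6, and 0.6. Adjusted over the 6 ratios, shares, and sums tested, the lowest exact p was 0.6. *Pdgfb* exceeded *Pdgfc* in 2 libraries, KO-labelled 0 and 1. The summed FPKM of the ligands was 70.4 to 99.2 (WT) and 56.8 to 94.5 (KO), which overlap (exact permutation p = 0.9).

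**Figure D3:**
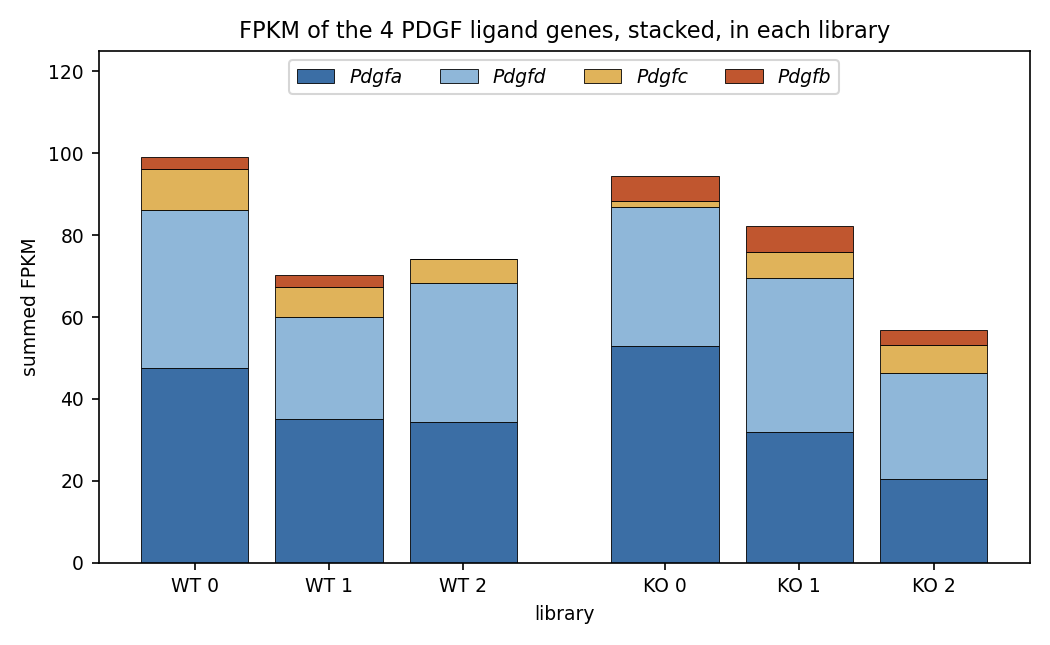
Stacked bars of the FPKM (vertical axis, linear) of *Pdgfa*, *Pdgfd*, *Pdgfc*, and *Pdgfb* in each library (horizontal axis). *Pdgfa* and *Pdgfd* make up most of each bar, and the *Pdgfb* segment is 6.24% to 7.98% of the bar in the KO-labelled libraries and at most 4.13% in the WT-labelled ones.

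The mural cell surface proteins overlapped between the groups. *Mcam* (chromosome 9, bases 44134469 to 44142727) encodes CD146, an adhesion molecule of SMCs, pericytes, and endothelium. It was the highest of the 10 genes in 6 of 6 libraries and above 98.0% of all tested genes by mean FPKM. Values were 286, 165, and 158 FPKM in the WT-labelled libraries (mean 203 ± 72.3, SD, n = 3) and 165, 208, and 153 in the KO-labelled ones (mean 175 ± 28.7, SD, n = 3). WT-labelled library 0 was the highest and the other 5 lay closer together. Its log2 fold change, -0.17, lay within the spread (standard error 0.26, 95% interval -0.78 to 0.44, limma adjusted p = 0.841). It was 0.11 without WT-labelled library 0 and 0.020 with quantile normalization.

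*Cspg4* (chromosome 9, bases 56865033 to 56899870) encodes NG2, a proteoglycan used to mark pericytes. It was read at 51.7, 31.9, and 26.3 FPKM in the WT-labelled libraries and 36.8, 40.8, and 19.3 in the KO-labelled ones. WT-labelled library 0 was again the highest, and KO-labelled library 2 the lowest. limma fitted a log2 fold change of -0.19 (standard error 0.36, 95% interval -1.03 to 0.64, adjusted p = 0.870). It turned to 0.086 without WT-labelled library 0 and to 0.14 without KO-labelled library 2.

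*Anpep* (chromosome 7, bases 79821803 to 79861059) encodes aminopeptidase N (CD13), found on pericytes, fibroblasts, and myeloid cells. Its values were 11.2, 23.3, and 49.5 FPKM in the WT-labelled libraries and 6.51, 26.3, and 26.5 in the KO-labelled ones, a 7.59-fold span between the highest and the lowest library. Both libraries numbered 0 were low and WT-labelled library 2 was high, so the groups overlapped. The log2 fold change was -0.50 (standard error 0.68, 95% interval -2.08 to 1.09, limma adjusted p = 0.821), and it was 0.17 without KO-labelled library 0 and 0.041 without WT-labelled library 2. WT-labelled library 2 also had the highest sums of fibroblast and adventitia markers (6746 FPKM) and of mesothelial and epithelial markers (237 FPKM). Macrophage and leukocyte markers summed to 32.9 FPKM in WT-labelled library 0 and 44.0 in KO-labelled library 0, the 2 lowest of the 6. Their sums in KO-labelled libraries 1 (241 FPKM) and 2 (189 FPKM) exceeded that in WT-labelled library 2 (173 FPKM), where *Anpep* was highest. The part of these cells in the values of *Anpep* was not tested.

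By mean FPKM over the 6 libraries, *Mcam* (189) was followed by *Pdgfra* (51.5), *Pdgfa* (37.0), *Pdgfrb* (35.6), *Cspg4* (34.5), *Pdgfd* (32.5), *Pdgfrl* (29.3), *Anpep* (23.9), *Pdgfc* (6.36), and *Pdgfb*. *Mcam* was separated from *Pdgfra*, since its lowest library (153 FPKM) exceeded the highest of *Pdgfra* (68.9). All other neighbours in this order overlapped in their range over the libraries. Among 9122 genes that average 5 FPKM or more, those whose log2 values over the 6 libraries were most like *Pdgfra* by Pearson correlation were *Prom1*, *Hgsnat*, *Ano6*, *Plcb4*, and *Ube2w*. For *Pdgfrb* they were *Msantd3*, *Plekhg3*, *Ppp1cb*, *Tspyl1*, and *Emilin1*, all of which, like *Pdgfrb*, were lowest in KO-labelled library 2. These 10 genes are the best matches of a large number over few libraries and are given as a description only.

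Further genes of the pathway were grouped by role. Of 12 genes for ligand processing, coreceptors, and binding proteins, 10 were tested, and 4 were higher and 6 lower. The median log2 fold change was -0.16, and 0 were called, beside 0.00772% of all tested genes. *Lrp1*, an endocytic receptor that binds PDGFRβ, was at 88.0, 92.3, and 89.0 FPKM in the WT-labelled libraries and 56.9, 67.6, and 62.2 in the KO-labelled ones. It was the only 1 of the 10 tested genes of this list whose groups did not overlap, beside 16.1% of all tested genes. limma gave -0.53 on the log2 scale (standard error 0.15, adjusted p = 0.502, unadjusted p = 0.00775), and -0.59 to -0.47 when any library was left out. The proteases *Plat* and *Plau*, which activate PDGF-C and PDGF-D, had log2 fold changes of -0.53 (standard error 0.42) and -0.70 (standard error 0.41), and their groups overlapped. *Nrp2*, a coreceptor for several growth factors, came to 0.999 (standard error 0.45, limma adjusted p = 0.611) on the same scale, with overlapping groups.

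The relay from receptor to nucleus was close to the median of all genes. Of its 34 genes, 33 were tested, and 20 were higher and 13 lower. The median log2 fold change was 0.063, and 0 were called, beside 0.00772% of all tested genes. *Nras*, a small GTPase of the MAPK route, was at 8.62, 8.39, and 6.11 FPKM in the WT-labelled libraries and 14.3, 14.2, and 14.2 in the KO-labelled ones (log2 fold change 0.89, standard error 0.27, limma adjusted p = 0.535). *Yes1*, a kinase of the SRC family, was at 15.7, 13.9, and 7.61 against 23.7, 22.1, and 24.2 FPKM (log2 fold change 0.97, standard error 0.31, limma adjusted p = 0.545). The adaptor gene *Nck1* had the largest log2 fold change of the relay, 1.07 (standard error 0.74, limma adjusted p = 0.695), and its groups overlapped. *Pik3ca*, the catalytic subunit of PI3-kinase, was singled out after its values were seen and was at 17.3, 15.2, and 16.8 against 12.4, 13.0, and 13.7 FPKM. *Nras*, *Yes1*, and *Pik3ca* were the 3 of 33 genes that did not overlap between the groups, beside 16.1% of all tested genes.

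Of 12 genes that attenuate the receptors, such as phosphatases and Sprouty proteins, all were tested, 7 were higher and 5 lower, and 0 were without overlap, beside 16.1% of all tested genes. Their median log2 fold change was 0.049. *Dusp6*, a phosphatase of ERK, had the largest absolute value, 1.10 (standard error 0.66, limma adjusted p = 0.669). Among the 7 genes of the related class III receptors and their ligands, 5 were tested, 2 were higher and 3 lower, and 0 were called or without overlap, beside 0.00772% and 16.1% of all tested genes. *Kit*, the stem cell factor receptor, was at -0.85 on the log2 scale (standard error 0.92), and *Csf1r*, the macrophage colony-stimulating factor receptor, at 0.45 (standard error 0.52).

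Pericyte and mural markers did not share a direction. Of 16 genes, 13 were tested, with 6 higher, 7 lower, and 0 called, beside 0.00772% of all tested genes. Their median log2 fold change of -0.12 became 0.25 without KO-labelled library 2 and 0.042 with quantile normalization. The groups did not overlap for 6 of the 13, with 4 lower and 2 higher, beside 16.1% of all tested genes (7.84% lower and 8.21% higher). *Vtn*, *Higd1b*, and *Foxf2*, which mark pericytes of small vessels in other tissues, were under the filter and were listed at 0 in 3 or more libraries each. *Rgs5*, a regulator of G protein signalling that is abundant in pericytes, was at 814, 325, and 262 FPKM in the WT-labelled libraries and 845, 364, and 177 in the KO-labelled ones. *Des*, the intermediate filament desmin, ranged from 19.3 to 72.5 FPKM (WT) and from 7.11 to 42.8 (KO), with a log2 fold change of -1.54 (limma adjusted p = 0.615). *Notch3*, a mural cell receptor, also overlapped, at 0.17 on the log2 scale (standard error 0.27).

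The 2 subunits of the vascular ATP-sensitive potassium channel were both lower in every KO-labelled library. *Kcnj8*, the pore subunit, was at 32.8, 29.0, and 31.8 FPKM in the WT-labelled libraries and 15.6, 15.2, and 13.2 in the KO-labelled ones, a log2 fold change of -1.09 by limma (standard error 0.19, adjusted p = 0.317, unadjusted p = 0.000539). *Abcc9*, the regulatory subunit, was at 67.5, 52.4, and 41.4 against 39.8, 32.2, and 32.5 FPKM (log2 fold change -0.60, standard error 0.22, limma adjusted p = 0.574). The spread of *Kcnj8* within each group was small beside the gap, and its log2 fold change stayed between -1.14 and -1.01 with each library left out.

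*Cd248*, the stromal receptor endosialin, was at 124, 108, and 152 FPKM in the WT-labelled libraries and 50.4, 76.9, and 70.7 in the KO-labelled ones (log2 fold change -0.96, standard error 0.22, limma adjusted p = 0.434). *Cox4i2*, a cytochrome c oxidase isoform, was at 29.4, 17.8, and 50.3 against 7.73, 14.9, and 3.55 FPKM (log2 fold change -1.98, standard error 0.57, limma adjusted p = 0.516). *Kcnj8*, *Abcc9*, *Cd248*, and *Cox4i2* were the 4 of the 13 tested markers that lay below without overlap, as *Pdgfrl* did. They are grouped here by that outcome. *Pdgfrb*, *Cspg4*, and *Mcam* overlapped, as did most of the 13. *Gja4*, a connexin of arterial endothelium and mural cells, was higher, at 19.9, 22.8, and 17.9 against 55.8, 63.0, and 28.4 FPKM (log2 fold change 1.20, standard error 0.31, limma adjusted p = 0.476). *Angpt1*, a mural cell ligand of the endothelial receptor TIE2, was at 2.90, 9.84, and 0 in the WT-labelled libraries and 28.5, 12.1, and 11.6 in the KO-labelled ones. The fitted log2 fold change of *Angpt1*, 3.47, includes the listed 0, and omitting single libraries gave 1.55 to 4.87. *Tek*, which encodes TIE2, was at 56.6, 34.99, and 58.5 against 62.9, 74.7, and 66.2 FPKM (log2 fold change 0.47, limma adjusted p = 0.624), again without overlap. The difference between the fold changes of these genes and those of the PDGF genes was not tested.

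**Figure D4:**
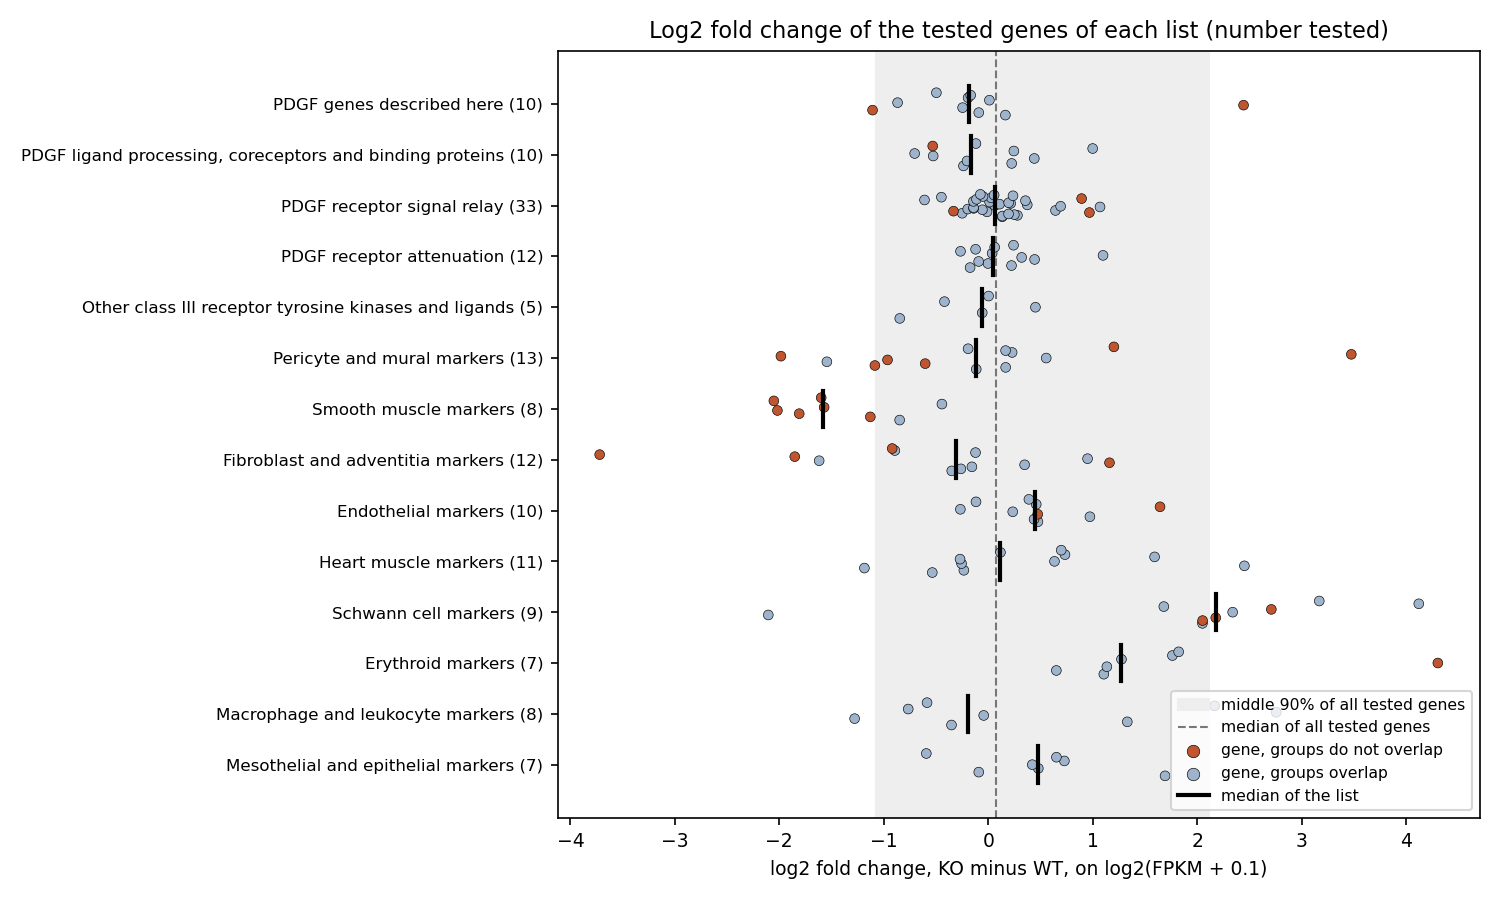
Log2 fold change (horizontal axis, KO minus WT) of each tested gene (points) in each gene list (rows, number tested in brackets), with the list median (bar), colour for groups with and without overlap, and the middle 90% and median of all tested genes behind. The median of the relay lies near that of all genes, the 10 PDGF and mural cell genes run from -1.11 (*Pdgfrl*) to 2.44 (*Pdgfb*), pericyte and mural markers spread to both sides, and the 8 SMC markers lie to the left with a median of -1.58.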

How the data were processed

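Bulk RNA-Seq was performed on 6 DA libraries at E17.5, 3 labelled WT and 3 labelled KO. Reads were trimmed (minimum base quality 30, minimum length 45), aligned to mm10 with TopHat2, and processed with Cufflinks and Cuffdiff by the authors, who deposited FPKM per gene and library. Versions and annotation are not given in the sources used here, and 0 columns lacked a sample. From these values, log2(FPKM + 0.1) was compared with limma 3.58.1 in R 4.3.3 (eBayes with a trend, two-sided, Benjamini-Hochberg, threshold 0.05), a script tested on simulated data. Cuffdiff needs the reads and was not repeated. Single values were compared with exact permutation tests. Gene positions came from GENCODE vM21 on GRCm38 and promoters from RefSeq. FPKM hold no counts, so no counting interval was computed.

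All 10 members are named. From each other list, genes came from the 4 with the largest absolute fold change or, without a limit of number, from its defining markers, and *Pik3ca* was added for its separated groups. For both receptors, the 5 genes most alike were named. The members and lists were chosen with earlier results of these data known. Alternatives were 2 pseudocounts, 3 filters, 2 scalings, 2 variance models, a replicate block, and the omission of each library. The omission of the 2 libraries high in heart muscle transcripts was chosen after seeing the data. A marker from the Schwann cell list is not reported here, and the list was summarised without it.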

Additional observations from a re-analysis of the deposited data

How the results depend on the processing

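limma called 1 gene, and 2 without a trend or without moderation, 3 without the 2 heart muscle-rich libraries, and 1 to 3 with 1 library omitted. *Rn45s* was the gene called in the main fit, and it was among those called in every alternative. None of the called genes was a PDGF or mural cell member. Over omissions of 1 library, log2 fold changes spanned -0.019 to 0.34 (*Pdgfra*), -0.18 to 0.068 (*Pdgfrb*), -0.60 to 0.091 (*Pdgfa*), -0.17 to 0.16 (*Pdgfd*), -0.40 to 0.14 (*Cspg4*), -0.32 to 0.11 (*Mcam*), and -1.03 to 0.17 (*Anpep*), and turned sign in at least 1 omission each. The share of *Pdgfc* among ligands differed by -4.98 to 0.23 percentage points. List medians spanned -0.28 to 0.079 (the 10 members), -0.20 to 0.019 (ligand processing), 0.047 to 0.13 (relay), -0.60 to 0.091 (class III receptors), -0.23 to 0.25 (pericyte and mural), 1.84 to 3.04 (Schwann cell), 1.03 to 2.32 (erythroid), and -0.50 to 1.13 (macrophage). Without the heart muscle-rich pair, signs turned for *Pdgfrb* (0.063), *Pdgfa* (0.024), *Pdgfd* (-0.016), *Cspg4* (0.072), the log2 ratio of *Pdgfra* to *Pdgfrb* (-0.013), and the shares of *Pdgfa* (0.25) and *Pdgfd* (-1.45), and the pericyte and mural median was 0.22. Quantile normalization gave 0.020 for *Mcam*, 0.13 for the relay, and -0.42 for class III receptors. A filter at 0.1 FPKM or none gave 0.053 for ligand processing, since more of its genes were tested. Other causes were not tested. *Pdgfrl* and *Pdgfb* kept their direction in every alternative in which they were tested, and the filter at 5 FPKM left out *Pdgfb*. Since the groups of both genes were separated, only the 2 scalings could have turned it. The kept direction therefore restates that separation and is not separate support.

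Whether replicate numbers pair the samples is not known, and the libraries were treated as unpaired. Deviations of same-numbered libraries correlated at 0.12, -0.076, and -0.0088 across genes, within the -0.12 to 0.14 of differently numbered ones. Such correlations cannot exclude a pairing. With the replicate block, limma called 1 gene, and the log2 fold change of *Pdgfrl* was -1.11 (adjusted p = 0.323). Its log2 value is unchanged by construction in this balanced design. Without counts, no sampling error can be given for low genes such as *Pdgfb* and *Pdgfc*.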
